A study of Mus musculus with 12 samples.

Results

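Among the regions that the authors listed for a different level of 5-hydroxymethylcytosine (5hmC) in control and Tet mutant mouse retinas, 209 of 592906 had a higher mean level in the mutant (0.0353%). These regions are called 5hmC gains here, and the other 592697 are called losses. A gain was chosen by its measured values alone: its mean bACE-seq level in Tet tcKO was above that in Cre-. The higher level is therefore what defines the set, and it is described here without a test.

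5hmC is made when the TET enzymes, TET1, TET2 and TET3, oxidise 5-methylcytosine (5mC) in DNA, mostly at CpG dinucleotides. It is an intermediate of active demethylation and also a lasting mark, and it is abundant in neurons. In bACE-seq, bisulfite turns 5hmC into an adduct that the deaminase APOBEC3A cannot attack, while 5mC and cytosine are deaminated and read as T, so that a remaining C counts as 5hmC. WGBS, or whole genome bisulfite sequencing, does not tell 5mC from 5hmC and gives their sum. With the TET enzymes deleted, a level of 5hmC above that of the control is the reverse of the enzymes' known activity, and the question addressed is which regions of the genome carried such levels.

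DNA came from whole retina at postnatal day 21 (P21), from mice of the strain labelled C57 BL/6J. Tet tcKO retinas carried floxed alleles of Tet1, Tet2 and Tet3 and a Cre-GFP transgene, which is active in retinal progenitors. This transgene can be mosaic, and cells of the retina that do not come from those progenitors (vessels and microglia, for example) keep their Tet genes. The Cre- controls, labelled WT, were bred from Cre- animals, and the labels do not say whether they carried the floxed alleles. Retinas were pooled across animals for each sample. There were 3 libraries for each genotype and assay, 12 in all, and the labels give no sex. Each region is described in the files by 1 mean level for each genotype, so the spread between the 3 libraries, the read depth and any interval of a level are unknown. The values below are compared with those of all losses in the same list, and regions were not treated as replicates.

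The gains were short and rich in CpGs. They held 2294 CpGs in 74.4 kb. Their median length was 181 bp (range 51 to 4083) and their median number of CpGs 9 (range 4 to 75), where losses had medians of 521 bp and 8 CpGs. The density of CpGs had a median of 5.28 per 100 bp in gains and 1.74 in losses. Their sequences fell into a few recognisable kinds, which are shown first.

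Many gains were simple repeats whose unit holds a CpG. The 7 sequences below are examples and are not typical in level or unit. They are on the plus strand of mm10, with each CpG in capitals. The first had the largest rise of all gains, the next 3 repeat units of 5 or 6 bases, 1 alternates CG with TG, the next had the highest density of CpGs of all gains and the last sets a run of CA beside a run of CG. Those on chromosomes 4 and 17 and chr2:119869393-119869453 were chosen as examples after their values had been seen.
chr8:34546046-34546126: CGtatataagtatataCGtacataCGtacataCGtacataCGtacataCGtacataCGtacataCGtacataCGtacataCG
chr4:56141675-56141747: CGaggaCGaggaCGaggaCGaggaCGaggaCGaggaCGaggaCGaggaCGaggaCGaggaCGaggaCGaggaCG
chr2:119869393-119869453: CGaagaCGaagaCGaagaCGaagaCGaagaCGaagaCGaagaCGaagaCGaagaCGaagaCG
chr2:46282176-46282251: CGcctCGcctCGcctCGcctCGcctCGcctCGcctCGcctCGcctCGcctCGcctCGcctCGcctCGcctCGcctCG
chr2:109031982-109032034: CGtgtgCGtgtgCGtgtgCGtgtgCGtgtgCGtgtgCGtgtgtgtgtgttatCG
chr17:41958564-41958614: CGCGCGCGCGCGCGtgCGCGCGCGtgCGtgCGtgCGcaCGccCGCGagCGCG
chr9:7913892-7913996: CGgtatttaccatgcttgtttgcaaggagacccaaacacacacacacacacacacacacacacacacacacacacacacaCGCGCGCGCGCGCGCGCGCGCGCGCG
All 7 are intergenic. The repeat chr8:34546046-34546126, with the unit CGTACATA, went from 25.9% 5hmC in Cre- to 61.4% in Tet tcKO. At chr4:56141675-56141747 it was 31.2% and 51.7%, at chr2:119869393-119869453 24.1% and 36.8%, and at chr2:46282176-46282251 31.5% and 48.9%. At chr2:109031982-109032034 it was 29.4% and 52.8%, at chr17:41958564-41958614 6.17% and 18.8%, and at chr9:7913892-7913996 14.2% and 23.2%. Most of the 7 had control levels of 24.1% or more, where the 122 gains with repeat runs described below had a median of 7.37%. Units such as CGTACATA were rare among gains, and CG, CGCA or CGCACA was the main unit in 67. The mutant level was above the control level in each of the 7 by the rule, and the difference ran from 9.02 to 35.5 percentage points.

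Another kind of gain had exact copies elsewhere in the genome. The first 2 below were the only pair of gains with the same sequence, the next carries a version of it on the other strand, and the last had the largest rise among copied regions. CpGs are again in capitals.
chr11:111182634-111182690: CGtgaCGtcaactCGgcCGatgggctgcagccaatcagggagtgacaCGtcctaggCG
chr4:71508704-71508760: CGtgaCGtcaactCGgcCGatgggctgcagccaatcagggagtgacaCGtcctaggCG
chr7:59692989-59693045: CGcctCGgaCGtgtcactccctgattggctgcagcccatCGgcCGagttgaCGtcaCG
chr4:115426634-115426724: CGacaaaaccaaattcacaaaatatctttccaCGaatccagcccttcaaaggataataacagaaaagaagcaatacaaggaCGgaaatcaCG
The identical pair had similar levels, 1.18% in Cre- and 2.72% in Tet tcKO on chromosome 11 and 1.45% and 2.72% on chromosome 4. The version in an intron of the noncoding RNA gene Snhg14 on chromosome 7 had 1.74% and 2.94%. The last, in an intron of Cyp4a12b, a gene of the cytochrome P450 family, had 0.873% and 26.3% over 4 CpGs.

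Gains of other kinds are shown by 5 sequences. The first lies in a coding exon at the start of Yars2, the mitochondrial tyrosyl-tRNA synthetase gene, and the next has its midpoint 72 bp from the start of the noncoding gene Gm34590. All distances to genes are from the midpoint of a gain. The one on chromosome 7 had the largest rise outside perfect runs and copies, the next repeats its unit imperfectly, and the last lies in a coding exon of Scn9a, a voltage-gated sodium channel gene. The imperfect repeat and the exon of Scn9a were chosen as examples after their values had been seen.
chr16:16302988-16303100: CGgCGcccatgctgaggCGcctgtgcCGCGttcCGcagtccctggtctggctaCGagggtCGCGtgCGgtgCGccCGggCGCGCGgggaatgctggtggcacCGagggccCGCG
chr15:36938759-36938826: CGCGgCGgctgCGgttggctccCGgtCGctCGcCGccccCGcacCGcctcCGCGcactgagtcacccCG
chr7:22442215-22442350: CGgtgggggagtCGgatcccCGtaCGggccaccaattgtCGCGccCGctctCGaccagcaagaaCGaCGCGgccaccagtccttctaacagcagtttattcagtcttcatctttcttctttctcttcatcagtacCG
chr4:93966248-93966329: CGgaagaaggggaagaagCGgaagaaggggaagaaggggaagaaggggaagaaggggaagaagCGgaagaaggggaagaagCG
chr2:66494621-66494673: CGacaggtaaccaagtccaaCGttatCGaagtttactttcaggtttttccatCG
Yars2 had the lowest control level of all gains, 0.347% in Cre-, with 1.35% in Tet tcKO, and Gm34590 had 0.561% and 1.91%. The region chr7:22442215-22442350, 4053 bp from the vomeronasal receptor gene Vmn1r149, had 2.03% and 33.9%, and all of its bases are in lower case in the reference, which marks repeats. The imperfect repeat had 0.659% and 16.0%, and the exon of Scn9a had 1.07% and 7.08%. Both start-site sequences had low levels in either genotype, and the other 3 moved by 6.01 points or more.

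Over all gains, the 5hmC level had a median of 4.68% in Cre- (range 0.347 to 36.4) and 13.04% in Tet tcKO (range 1.35 to 61.4). Losses had medians of 13.9% and 3.08%. The rise of a gain had a median of 7.30 percentage points and ranged from 0.0980 to 35.5. Weighted by CpGs, the authors' means gave 7.65% in Cre- and 16.7% in Tet tcKO, a ratio of 2.18. The level at least doubled in 137 gains, and it rose by 10 points or more in 69 and by 20 points or more in 21. Of the 137, 59 had less than 2% in Cre-, and 17, among them the 12 of the start-site class, had less than 3% in Tet tcKO as well. Cytosines that escape conversion are read as 5hmC and, at an even rate, weigh most at such low levels. Their part was not tested in these gains or in those with higher levels, the repeats included. The median of gains was thus below that of losses in Cre- and above it in Tet tcKO, an order that the rule favours. It did not hold for every gain: the 12 of the start-site class, with 1.35% to 2.81% in Tet tcKO, lay below the loss median there. A control level under 1%, which leaves room for a fall of less than 1 point, was found in 31 gains and in 2 losses. A mutant level of 20% or more was found in 61 gains and in 76 of the 592697 losses.

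**Figure D1:**
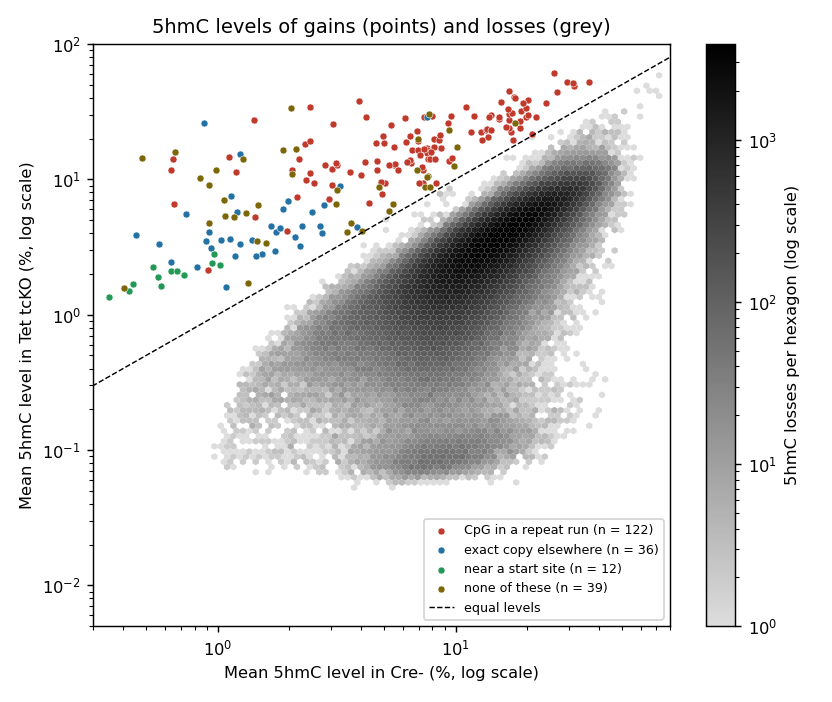
Mean 5hmC level of each listed region in Cre- (horizontal, %, log scale) and in Tet tcKO (vertical, %, log scale). Points are the 209 gains, coloured by class, grey hexagons count the losses, and the dashed line marks equal levels. Gains in repeat runs lie mostly at the upper right and the 12 near start sites at the lower left, with mutant levels from 1.35% to 2.81%.

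Gains were placed in 4 classes, in the order given here, which was chosen after the values had been seen and is not tested. A tandem run is a perfect repeat of a unit of 1 to 10 bases, with at least 3 copies and 12 bases. An alternating run is a stretch of at least 20 bases in which purines and pyrimidines strictly alternate, as in runs of CG or of CA. A region with the C of a CpG in either run was called run-bearing. Next came regions whose central 100 bases recur exactly elsewhere in the genome (copied), then regions with their midpoint within 2 kb of a start site, and last the remaining regions.

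The 122 run-bearing gains (58.4% of gains, where 7.80% of losses were run-bearing) had the highest levels, with medians of 7.37% in Cre- and 18.9% in Tet tcKO and a median rise of 9.71 points. The 36 copied gains had medians of 1.42% and 4.03%, and a median rise of 2.49 points. In the 12 gains at start sites the medians were 0.604% and 2.03%, with a median rise of 1.33 points. The 39 remaining gains had 2.13% and 8.77%, and a median rise of 4.31 points. Losses of each class pointed the other way by the rule, with medians of 16.0% and 3.71% when run-bearing and 7.12% and 1.45% when copied. As a share of their class, gains were 0.263% of run-bearing regions, 0.323% of copied regions, 0.0292% of regions at start sites and 0.00789% of the rest.

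Of the CpGs that the reference holds in gains, 1194 of 2556 (46.7%) lay in runs, where the share in losses was 1.54%. Tandem runs held 32.3% of them and alternating runs 35.2%, with 0.669% and 1.24% in losses. At least 50% of the CpGs lay in runs in 113 gains (54.1%) and in 4555 losses (0.769%). Regions of this kind numbered 4668, and 2.42% of them were gains, where the share over the whole list was 0.0353%. The other 4555 had medians of 13.1% in Cre- and 2.84% in Tet tcKO, so most regions made largely of runs had less 5hmC in the mutant.

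The share of gains differed with how much of a region was repeat. It was 0.0159% among the 546577 regions without a CpG in a run (87 gains) and 0.00816% among the 36762 with up to 25% of their CpGs in runs (3 gains). It was 0.150% from over 25 to 50% (9 of 6020), 1.83% from over 50 to 75% (42 of 2296) and 5.44% above 75% (68 of 1251). A run at only a few of a region's CpGs thus went with no higher share of gains than no run at all, and the share was highest where runs held nearly all CpGs. Short regions can reach a high share of CpGs in runs more easily than long ones, and 162 gains (77.5%) but 48.1% of losses were shorter than 500 bp.

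**Figure D2:**
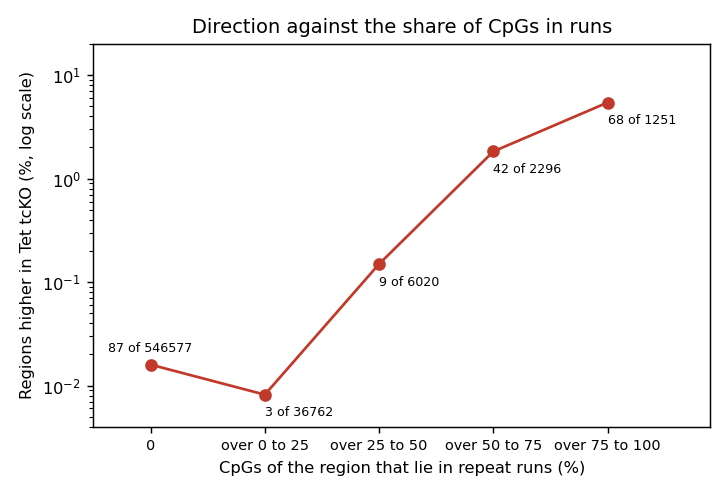
Share of listed bACE-seq regions with a higher 5hmC level in Tet tcKO (vertical, %, log scale) by the percentage of a region's CpGs that lie in tandem or alternating runs (horizontal). The numbers beside the points are gains of listed regions, and the share reaches 5.44% where over 75% of CpGs lie in runs.

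Units of the runs were found in the 100 gains with a CpG in a tandem run. CG was the main unit in 37 gains, CGCA in 22 and CGCACA in 8, all of which alternate purine and pyrimidine. The 37 gains with the unit CG had medians of 7.33% in Cre- and 21.0% in Tet tcKO, and the 1736 losses with that unit had 17.2% and 4.43%. With the unit CGCA the gains had 7.21% and 16.2%, and gains were 1.21% of all regions with it, where they were 2.09% for CG and 1.44% for CGCACA. The dinucleotide AC, which has no CpG of its own, was the main unit of 6 gains and 5645 losses (0.106% gains). The other units were mostly longer ones with a single CpG, such as CGAGGA (2 gains and 15 losses) and CGCCTC (3 gains and 49 losses). Both kinds of run were present in 76 gains, a tandem run alone in 24 and an alternating run alone in 22. A run of at least 4 CG lay in 53 gains (25.4%) and 0.624% of losses. These 53 gains had medians of 7.33% and 18.8%, a median rise of 9.58 points, and the other 69 run-bearing gains had a median rise of 10.2 points, so gains with and without a long CG run lay close together.

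**Figure D3:**
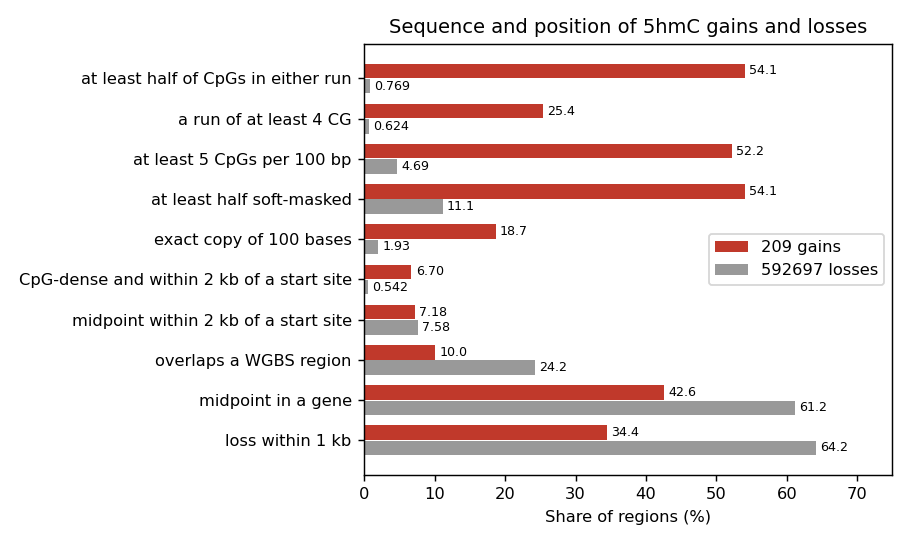
Share (%) of the 209 gains (red) and of the 592697 losses (grey) with each property of sequence or position. At least 50% of the CpGs lay in runs in 54.1% of gains and 0.769% of losses, and a loss lay within 1 kb of 34.4% of gains and 64.2% of losses.

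The 10 largest rises show the range of places. After the repeat on chromosome 8 came chr9:87146767-87147621, in an intron of Mrap2, an accessory protein of melanocortin receptors, which went from 3.91% in Cre- to 38.2% in Tet tcKO over 13 CpGs. The region near Vmn1r149 followed. Next were chr7:32026976-32027026 (2.44% and 34.2%) and chr7:36575546-36575600 (16.7% and 45.3%), both intergenic. Further down were chr1:120866925-120867138 with 1.41% and 27.3% and the intron of Cyp4a12b. Then came chr5:142328185-142328801, 73004 bp from the forkhead factor gene Foxk1, with 4.21% and 29.1% over 5 CpGs, and chr2:109031982-109032034. The last, chrX:152617690-152617918 in an intron of Shroom2, which encodes an actin-binding protein, had 11.0% and 34.4%. Of these 10 regions, 8 were run-bearing, 1 was copied and 1 was in neither class. Control levels among them ran from 0.873% to 29.4%, so a large rise was seen from low and from high levels.

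Rises of the 10 gains with the most CpGs ran from 0.526 to 19.8 points. Rock2, a kinase gene acting on the actin cytoskeleton, had a gain of 75 CpGs at its start (chr12:16894888-16895305, 0.675% and 2.11%), and the peptidase gene Dpp9 one of 69 CpGs (chr17:56218480-56218905, 0.438% and 1.70%). A CG repeat at chr8:109414182-109414523 had 35 CpGs, with 13.5% in Cre- and 23.4% in Tet tcKO. In an intron of Dcdc2a, a doublecortin family gene, 33 CpGs had 7.36% and 16.7%. A gain of 30 CpGs lay 9104 bp from Mcph1, a gene of chromosome condensation (chr8:18585832-18586223, 5.35% and 25.1%). A gain of 29 CpGs in an intron of Fars2, which encodes the mitochondrial phenylalanyl-tRNA synthetase, had the smallest of these rises (21.0% and 21.6%). There the authors' area statistic, a score of their comparison, had the sign of a loss. The other 4 of these 10 gains had 27 to 39 CpGs.

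Near start sites the levels were low in both genotypes. A midpoint within 2 kb of a start site was found for 15 gains (7.18%) and 7.58% of losses, and all 15 lay within 1 kb, where 3.74% of losses did. Of these 15, 14 held at least 5 CpGs per 100 bp. Such dense regions at start sites were 6.70% of gains and 0.542% of losses. Besides Yars2, Rock2 and Dpp9, the genes included Stk11 (a kinase, with a pair of gains in its untranslated region), Lrrc8c (a subunit of a volume-regulated anion channel), Purb (a nucleic acid binding protein), Rpl17 (a ribosomal protein), Pi4k2a (a lipid kinase), Atxn10, the homeobox gene Esx1, Bsnd and the noncoding genes Gm34590 and Gm49166. Atxn10, whose gain spans the start of the gene, went from 0.533% in Cre- to 2.24% in Tet tcKO. The exception in level was chr4:106492818-106493002, 627 bp from Bsnd, a chloride channel subunit gene, where a CGCA repeat had 15.3% and 28.7%. Without the 3 gains that belonged to an earlier class, the 12 at start sites had 0.347% to 1.02% in Cre- and 1.35% to 2.81% in Tet tcKO. Their rises, 1.00 to 1.85 points, are the smallest in range of the 4 classes, and losses at start sites had medians of 13.7% and 3.18%.

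The copied gains had a median of 8 exact copies of their central 100 bases, with a range of 1 to 2117. Between 1 and 10 copies were found for 19 of them and over 100 for 11. Of 9307 copies in all, 719 (7.73%) lay at a listed loss and 4 at another gain. A copy at a loss was found for 22 of the 36 gains, and for 14 gains none of the copies was listed. A copy counted as lying at a loss where any of its bases overlapped the loss. The 100 bases can also reach past a gain, since the median length of copied gains was 82 bp. For these 22 gains the same 100 bases thus recur at a loss, but the bases listed need not be the same. Fewer CpGs were listed than the reference holds in 14 of the 36 (38.9%), where the share was 28.1% among copied losses and 2.66% among all losses. The 36 gains had 198 listed CpGs and 428 in the reference. How reads were assigned among the copies was not tested.

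By shared sequence (any 25 bases on either strand, with at least 12 different words of 4 bases), 21 gains fell into 4 groups. The 8 gains of the first group, which includes the identical pair, had 1.18% to 2.73% in Cre- and 2.72% to 6.90% in Tet tcKO. In the next, 6 gains had 1.24% to 3.26% and 1.72% to 8.97%. Another held 4 gains with 0.634% to 1.76% and 2.45% to 15.5%, and the last 3 gains with 1.53% to 7.61% and 2.81% to 28.6%. Members of a group are linked by such a shared stretch, directly or through other members, and are not independent regions. The widest spread was in the mutant levels of the groups of 4 and of 3. At least 50% of the bases were in lower case in the reference in 113 gains (54.1%) and 11.1% of losses.

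The WGBS list holds 193836 regions, of which 98.6% were higher in Tet tcKO. A WGBS region overlapped 21 gains (10.0%) and 24.2% of losses. These shares were not matched for length, and gains were shorter than losses (medians of 181 and 521 bp). It was higher in Tet tcKO at 15 of the 21 gains (71.4%) and at 99.5% of the 143696 overlapping losses. Total modification at the 21 gains had a median of 66.5% in Cre- and 80.3% in Tet tcKO, with a median change of 10.8 points, where the change at losses had a median of 15.9. In none of the 21 gains did the 5hmC level exceed the WGBS level of either genotype. The WGBS values belong to the overlapping region, which covered from 1.20% to 100% of a gain.

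At run-bearing gains with a WGBS region, the WGBS level was higher in Tet tcKO less often than at overlapping losses, where it was higher at 99.5%. The bACE-seq level was higher by the rule. The WGBS region was higher at 13 of 17 run-bearing gains and at 2 of 2 remaining ones, and lower at 2 of 2 copied gains. It covered from 1.20% to 100% of each of the 13, and from 69.2% to 100% of the 4 that were lower. Several of the 13 thus rest largely on WGBS values of bases outside the gain, and the 13 of 17 may not hold for the gains' own bases. A CGCA repeat at chr9:86731452-86731574 had 7.06% and 15.2% by bACE-seq and 39.2% and 75.6% by WGBS. At chr17:70957864-70958121, 28 CpGs in an intron of the noncoding gene Gm26561, the values were 2.44% and 11.1% by bACE-seq and 19.8% and 51.3% by WGBS. At chr2:98149633-98149697 they were 0.650% and 14.1%, with 58.8% and 80.3% by WGBS. The CA and CG repeat chr9:7913892-7913996, 18055 bp from Yap1, a coactivator gene of the Hippo pathway, had 27.0% and 40.7% by WGBS. The 2 measures moved apart at 6 gains. The CGAGG repeat chr2:46282176-46282251 (CGCCT on the strand printed above) had the largest fall, with 89.6% in Cre- and 61.8% in Tet tcKO by WGBS. At chr11:45038576-45038705, 30549 bp from the transcription factor gene Ebf1, 5hmC was 2.54% and 9.32% while WGBS was 38.5% and 27.8%. The other 4 lay on chromosomes 1, 7, 15 and 16, and their WGBS levels differed by -3.09 to -8.50 points (Tet tcKO minus Cre-).

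**Figure D4:**
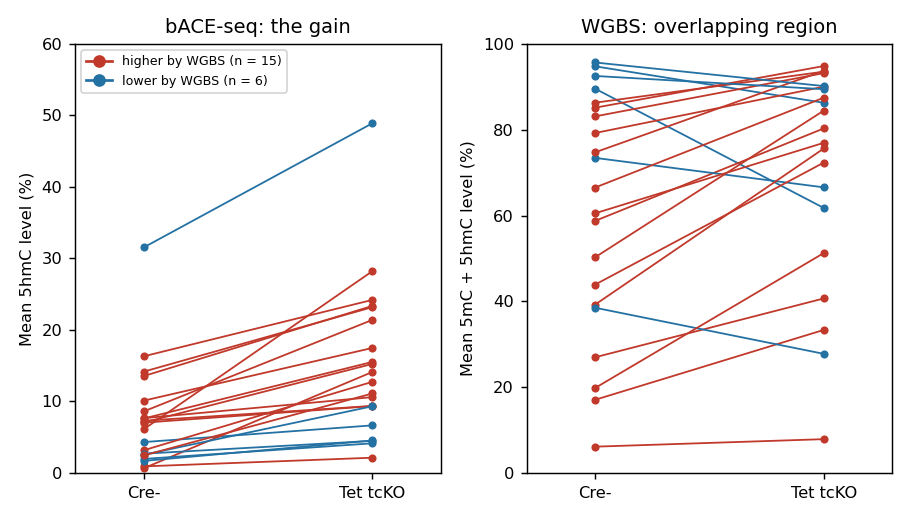
Mean levels in Cre- and Tet tcKO for the 21 gains that overlap a WGBS region, by bACE-seq (left, 5hmC, %) and by WGBS (right, 5mC + 5hmC, %). Each line is 1 region, red where the WGBS level was higher in Tet tcKO (15) and blue where it was lower (6).

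Gains lay farther from losses than losses from each other. The gap from a gain to the nearest loss had a median of 1572 bp, and that from a loss to the next 698 bp. By class the medians were 1322 bp for run-bearing gains, 5333.5 bp for copied ones, 824 bp at start sites and 3629 bp for the rest. Within 1 kb of a loss lay 72 gains (34.4%), where 64.2% of losses lay that close to another. In these 72 pairs the gains had medians of 5.99% in Cre- and 16.2% in Tet tcKO, and the neighbouring losses 12.4% and 2.72%. The loss had the higher control level in 55 pairs, and the gain the higher mutant level in 64. The rule favours both orders. At the 8 start-site gains with such a neighbour the order in the mutant was mostly the other way, since the gain was higher in 2. The 8 had medians of 0.654% and 2.18%, beside 18.1% and 4.31% in the losses. The closest pair was 148 bp apart: the CG repeat chr8:109414182-109414523, given above, lay beside a loss with 16.7% in Cre- and 2.39% in Tet tcKO. Calls of opposite direction were thus found within 1 kb of each other.

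**Figure D5:**
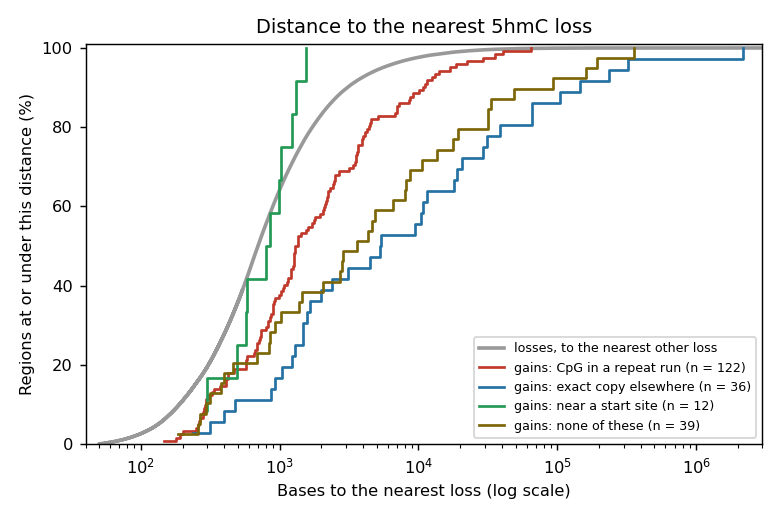
Cumulative share of regions (%) by the distance in bases to the nearest 5hmC loss (log scale), for losses (grey) and for the gains of each class. The curve of the 36 copied gains lies farthest to the right, with a median of 5333.5 bp, and that of all losses has a median of 698 bp.

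A gain was intergenic in 120 cases (57.4%) and in an intron in 80 (38.3%). A midpoint in a gene was found for 42.6% of gains and 61.2% of losses. Coding exons held 4 gains, in Scn9a, the cadherin gene Cdh18 (0.842% and 10.1%), Yars2 and Pi4k2a, and untranslated regions held 4. Autosomes carried 194 gains, 0.0333% of their listed regions. The X chromosome had 12 gains beside 10313 losses (0.116% gains) and the Y chromosome 3 beside 146 (2.01%). The sex of the pooled animals is not in the labels, so a difference in sex between the genotypes was not tested. Gains were scattered: 199 bins of 1 Mb held a gain, 10 of them a pair, and none held 3 or more. Of the 8 gains more than 100 kb from any loss, 5 were on X or Y, where few losses were listed (582238 were on autosomes). The share of losses on X or Y that lie as far from another loss was not computed.

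Of 195 genes in 14 lists of retinal cell types, methylation enzymes, imprinted and germline genes, 188 had a loss at their locus (5 kb on each side included) and 1 had a gain. Over all 32106 annotated genes, 88.8% had a loss and 0.343% a gain counted in the same way, so the few gains of the lists are near the background. The gene with a gain was Otx2, a homeobox factor of photoreceptor precursors. The gain, chr14:48676797-48677640, held 17 CpGs around a CG repeat, 3399 bp upstream of the start of Otx2 and in an intron of the antisense gene Otx2os1. It went from 16.3% in Cre- to 24.2% in Tet tcKO, and the WGBS region that covered 7.35% of it was higher by 10.8 points. The rod list had 0 of 19 genes with a gain and 19 with a loss, and the cone list 0 of 14 and 13. The 26 genes of DNA methylation and demethylation, the Tet genes among them, had no gain and 474 losses. Within 5 Mb of Tet1, Tet2 and Tet3, the floxed genes, no gain was listed, beside 3055, 2758 and 2441 losses. With 0.0353% gains over the whole list, 0 in windows of this size is near the background. The gain with the highest control level of all, 36.4%, lay in an intron of Ank2 at chr3:127106097-127106181, 6.36 Mb from Tet2, and had 52.1% in Tet tcKO.

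At the edge of the rule the differences were small. The 5 gains with the smallest rise differed by 0.0980 to 0.556 points, and the 5 losses with the smallest fall by -0.00674 to -0.783 points. The gain nearest to equality, chr8:30100948-30101683, had 4.03% in Cre- and 4.13% in Tet tcKO, and the nearest loss, chr13:29198351-29198631, had 5.13% in both. A difference under 1 point was found in 8 gains and 59 losses. In 12 gains the sign of the authors' area statistic was opposite to that of the difference in means, 9 of them in the class of remaining regions. The gain nearest to equality and the gain in Fars2 were among the 12.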

How the data were processed

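Genomic DNA of P21 whole retinas was profiled by bACE-seq and WGBS. Per the submitters' processing notes, reads were trimmed by the authors with Trim Galore (0.4.4), and they aligned them to mm10 with Bismark (0.18.2), filtered by mapping quality with SAMtools (1.15.1), removed duplicates with Picard (GATK 4.1.3) and extracted CpG levels with MethylDackel (0.6.1). The reads of a bACE-seq pair were mapped separately. Strands were summed per CpG, and DSS called regions on smoothed levels from the 3 libraries of each genotype, so a level borrows from neighbouring CpGs. Cytosines that escape conversion are read as modified, and the mapping filter removes reads that fit several places.

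The deposited means come from this comparison on smoothed levels, so they are not plain fractions of reads. They are printed here as percentages. The deposited difference of means and area statistic, a score, hold the authors' comparison. Their values were not used, and only the sign of the area statistic was counted. Depth and replicate spread are unknown, so no test, interval or adjusted value was computed.

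Regions read as 1-based positions were matched to GRCm38 (mm10) and to 32106 protein-coding and long noncoding genes of the GENCODE M21 basic annotation, with Python 3.11.15, numpy 2.4.6, pandas 2.3.3 and numba 0.67.0. Run finding, copy search and overlaps were checked on simulated sequences. Groups came from the labels. The members, the gene lists and the measures were chosen with earlier results of these data known, and runs and classes after the values had been seen. The rule for named regions took the 10 largest rises, the 10 with the most CpGs, those within 2 kb of a start site, over a WGBS region or at a listed gene, the 5 nearest to equality on each side, and any in a bin with 3 or more, with values in full for at most 30. Examples outside the rule are marked as such or were shown for their sequence. Alternatives changed 1 choice at a time. A few items that the rule names are not reported here.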

Additional observations from a re-analysis of the deposited data

How the results depend on the processing

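The files hold group means only, so leaving out a library was not possible. No paired analysis was possible because the replicate numbers of the labels have no values of their own in the files. There were 41 alternatives for 13 values, 4 of them (on runs and on 2 points subtracted) added after seeing the data. Of the 41, 8 stayed close to the reported value and 33 moved. A turn of direction was not looked for. The rule takes only regions that are higher in Tet tcKO, so their levels could not turn. With no replicate spread or depth, any change in a level counted as moved, and the cause was not tested beyond the smaller sets that stricter limits leave.

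At least 10 CpGs left 91 gains, with 8.89% in Cre-, 18.6% in Tet tcKO and a median rise of 9.35 points. A difference of at least 10 points left 69 gains (11.3% and 28.9%), and one of at least 20 points left 21. Autosomes alone had 7.74%, 16.8% and a median rise of 7.33 points. Gains whose area statistic has the sign of the difference had 7.52%, 16.9% and 7.81 points. Unweighted means were 6.81% and 15.6%, and means weighted by base pairs 7.49% and 14.9%. The ratio of levels was 2.36 with 1 point subtracted from both, 2.60 with 2 points and 2.14 without gains under 1% in Cre-. A WGBS region covered at least 50% of 5.74% of gains (8.56% of losses) and lay within 1 kb of 21.5% (37.1%). A start site lay within 5 kb of 12.4% of gains (16.6% of losses). Any lower-case base was found in 90.9% of gains (84.4% of losses) and lower case throughout in 30.1% (2.52%). Exact copies of 50 bases were found for 32.1% of gains (4.82% of losses). A loss lay within 200 bp of 2.39% of gains (11.0% of losses) and within 5 kb of 72.7% (94.4%). Bins of 5 Mb and 100 kb put 35.9% and 2.87% of gains with another gain. At least 50% of the CpGs lay in tandem runs in 34.4% of gains (0.270% of losses) and in alternating runs in 43.5% (0.672%).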
